A study of Mus musculus with 6 samples.

Results

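Cardiomyocytes of the mouse heart were compared between wells named NCM0 and wells named AFNCM on 1 ICELL8 nanowell chip, on which each well is chosen by imaging to hold a single living cell and every transcript carries a unique molecular identifier (UMI). The study's immature cardiomyocytes (imCMs) were isolated from the left ventricle of neonatal C57BL/6J mice. By its account of the co-cultures, imCMs of the AFNCM kind had shared a dish for days with adult cardiac fibroblasts (AFs), which were themselves passaged before use, and cells carrying a single tracking dye were sorted before sequencing. What the 0 in NCM0 stands for is not given in the sources used here, so the absence of fibroblasts, the time in culture and the handling of NCM0 cannot be told apart. Another group on the same chip, NFNCM, was grown with neonatal fibroblasts (NFs) at a lower plating ratio and is given beside AFNCM where a result needs it. A well was kept when it held at least 500 genes outside the mitochondrial genome and more UMIs of 5 cardiomyocyte genes (Tnnt2, Tnni3, Myh6, Actc1 and Tnnc1) than of 6 fibroblast genes (Col1a1, Col1a2, Col3a1, Dcn, Postn and Lum). Of 845 NCM0 and AFNCM wells, 707 were kept, 266 of NCM0 and 441 of AFNCM, out of 1419 wells on the chip and 2482 in the series.

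Heart muscle cells shortly after birth still divide, then stop dividing and build dense sarcomeres and mitochondria, and fibroblasts around them supply matrix, cytokines and chemokines. Interferons are secreted alarm proteins. Their receptors signal through transcription factors that include STAT2 and IRF9, which bind short GAAA-rich DNA motifs called interferon-stimulated response elements (ISREs) and turn on antiviral genes in most cell types, cardiomyocytes included. The transcription factor NF-kB acts on a separate motif and controls chemokines such as Ccl2 and Cxcl1, which draw monocytes and neutrophils into injured heart muscle.

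UMIs of the kept wells were summed within each of 5 pools, NCM0_1 and NCM0_2 against AFNCM1, AFNCM2 and AFNCM3, and expressed as CPM, a gene's UMIs relative to the pool's total after TMM scaling. The pools held 113, 153, 130, 164 and 147 wells in that order, with 2281346 to 5244717 UMIs per pool and a median of 12923 to 23929 UMIs per well, and both NCM0 pools had lower sums than every AFNCM pool. Nothing in the sources says that pools came from separate cultures. The p-values therefore measure the spread between pools, which may be technical. All pools belong to 1 deposited sample, and each had its own position in the source plate, which cannot be told apart from its pool. Positions also followed the groups. NCM0 lay at A1 and A2 and was dispensed first, AFNCM lay at B2, C2 and D2, and NFNCM at B1, C1 and D1. Position can therefore not be told apart from group either.

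The 5 cardiomyocyte genes that chose the wells summed to 34329 and 31741 CPM in NCM0 and to 34561, 34114 and 34979 CPM in AFNCM, while erythroid markers stayed at or below 1.14 CPM in all 5 pools. These 5 genes chose the wells, so their level is a description. Cardiomyocyte genes that the rule did not use, such as Ttn, Mybpc3 and Mb, were present in every pool, with the values given further on. As a description of the rule, 97.4% and 98.1% of the NCM0 wells with 500 genes were kept against 81.2%, 85.0% and 79.0% of the AFNCM wells. Within a factor of 2 of the threshold, 9 NCM0 and 20 AFNCM wells lay inside it, and 4 and 23 wells lay outside.

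Transcripts of other heart cells were present in the kept wells. The 6 fibroblast genes of the rule, which chose the wells, summed to 284 and 824 CPM in NCM0 and to 1207, 1352 and 1233 CPM in AFNCM. The sum of 12 endothelial markers was 45.1 and 54.0 CPM in NCM0 and 371, 524 and 361 CPM in AFNCM. Of the 11 tested, 6 (Pecam1, Cdh5, Emcn, Egfl7, Esam and Fabp4) were called higher in AFNCM, against 1.28% of all genes tested. Of the fits that left out an AFNCM pool, none called Pecam1, those without AFNCM2 or AFNCM3 lost Egfl7, and that without AFNCM2 lost Emcn. The sums of 12 macrophage markers overlapped between groups, at 824 and 220 CPM against 151, 692 and 897 CPM, with none called. Smooth muscle and pericyte markers summed to 1241 and 1674 CPM against 2180, 2579 and 2660 CPM with 1 of 7 called higher, epicardial markers to 29.8 and 19.9 CPM against 62.8, 74.1 and 132 CPM with none of 4 called, and 13 fibroblast markers outside the rule to 1237 and 2624 CPM against 2279, 2441 and 1767 CPM with 1 called higher. The sums of these 13 markers overlapped between the groups. Of all genes tested, 1.28% were called higher. Kcnj8 of the pericyte list and Msln of the epicardial list had no UMI in NCM0. Endothelial UMIs exceeded the cardiomyocyte sum in none of the NCM0 wells and in 4, 7 and 2 of the AFNCM wells. Every result below was therefore also computed in 232 NCM0 and 301 AFNCM wells whose cardiomyocyte sum was at least 10 times each of the fibroblast, endothelial and macrophage sums, a selection added after the values had been seen and called the strict wells here. In them the endothelial sum was 36.0 and 49.2 CPM against 70.6, 168 and 69.5 CPM, which the selection itself lowers, no endothelial marker was called, and the fibroblast sum was 123 and 615 CPM against 344, 626 and 550 CPM. The selection used no smooth muscle or epicardial markers. In the strict wells the smooth muscle and pericyte sum was 1092 and 1594 CPM against 1930, 2061 and 2937 CPM. The epicardial sum there was 32.9 and 16.1 CPM against 68.6, 73.8 and 150 CPM.

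**Figure D1:**
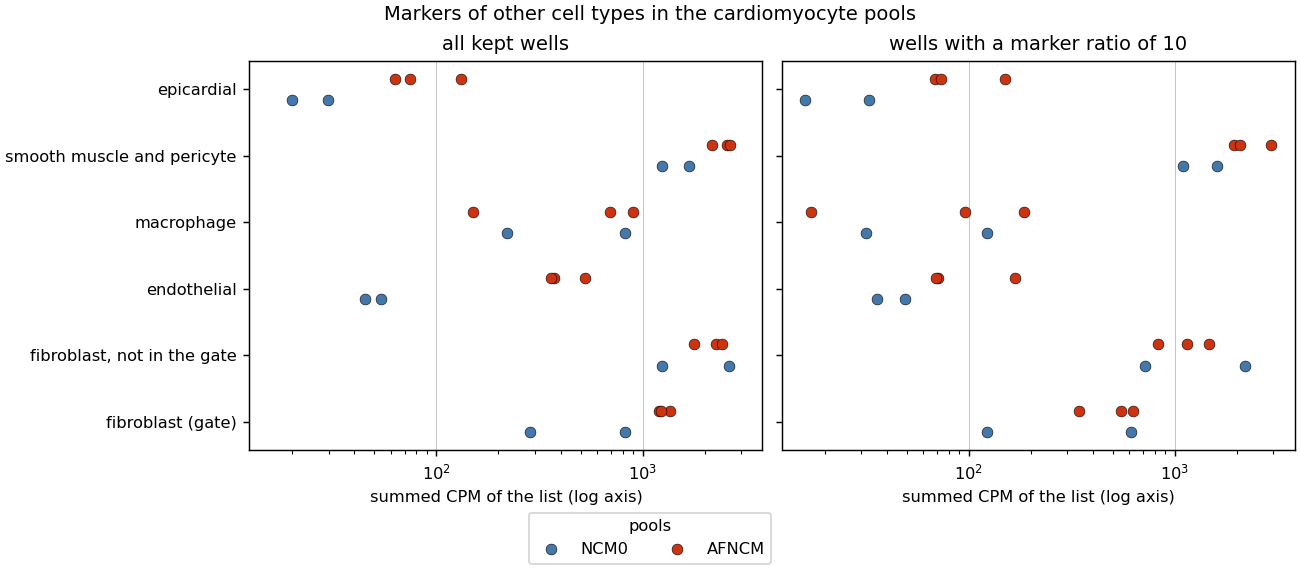
Summed CPM (log axis) of marker lists of other heart cell types in the 2 NCM0 pools (blue) and 3 AFNCM pools (red), in all kept wells (left) and in the strict wells (right). The endothelial sum lies at 45.1 and 54.0 CPM in NCM0 and at 361 to 524 CPM in AFNCM on the left, and at 36.0 to 49.2 and 69.5 to 168 CPM on the right.

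Most genes called between the AFNCM and NCM0 cardiomyocytes were higher in AFNCM. The genes called higher included 19 of 28 tested interferon-stimulated genes, 7 of 18 inflammatory genes, 4 of 13 antigen presentation genes, 3 Sprr2 genes of the epithelial envelope and 2 of 27 genes of the actin cytoskeleton, whereas 4 of 19 sarcomere genes, the cell cycle inhibitor Cdkn1a and the transcription factor Tbx20 fell. A gene was called when its adjusted p was below 0.05 and its log2 fold change exceeded 0.58 in size. Of 12808 genes tested by edgeR's quasi-likelihood test, 164 were called higher in AFNCM (1.28% of all tested) and 38 lower (0.297%), together 1.58%. The pools of the 2 groups did not overlap for any of these 202 genes, and the median log2 fold change over all tested genes was 0.0063. Without that threshold, the pools lay apart for 16.7% of all tested genes upward and for 14.4% downward. At an unadjusted p below 0.05 in edgeR's test, 1002 genes were higher in AFNCM and 781 lower.

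These counts moved with the pools. Leaving out NCM0_1 gave 105 calls, NCM0_2 128, AFNCM1 157, AFNCM2 80 and AFNCM3 106, and the number called lower was then between 5 and 29. Below, a call is said to be lost without a pool where the fit that left that pool out did not make it. In the strict wells 90 genes were called of 11557 tested (0.779%), of which 75 were higher (0.649%) and 15 lower (0.13%). Of these 90 genes, 83 were among the 202, and 195 of the 196 tested in both had the same sign. Among genes described below, the models of Timp1, Tgm2, Tspo, Manf, Mb, Cox6a2, Pln, Fabp3 and Angpt2 overlap another coding gene, and reads may be split between such pairs.

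**Figure D2:**
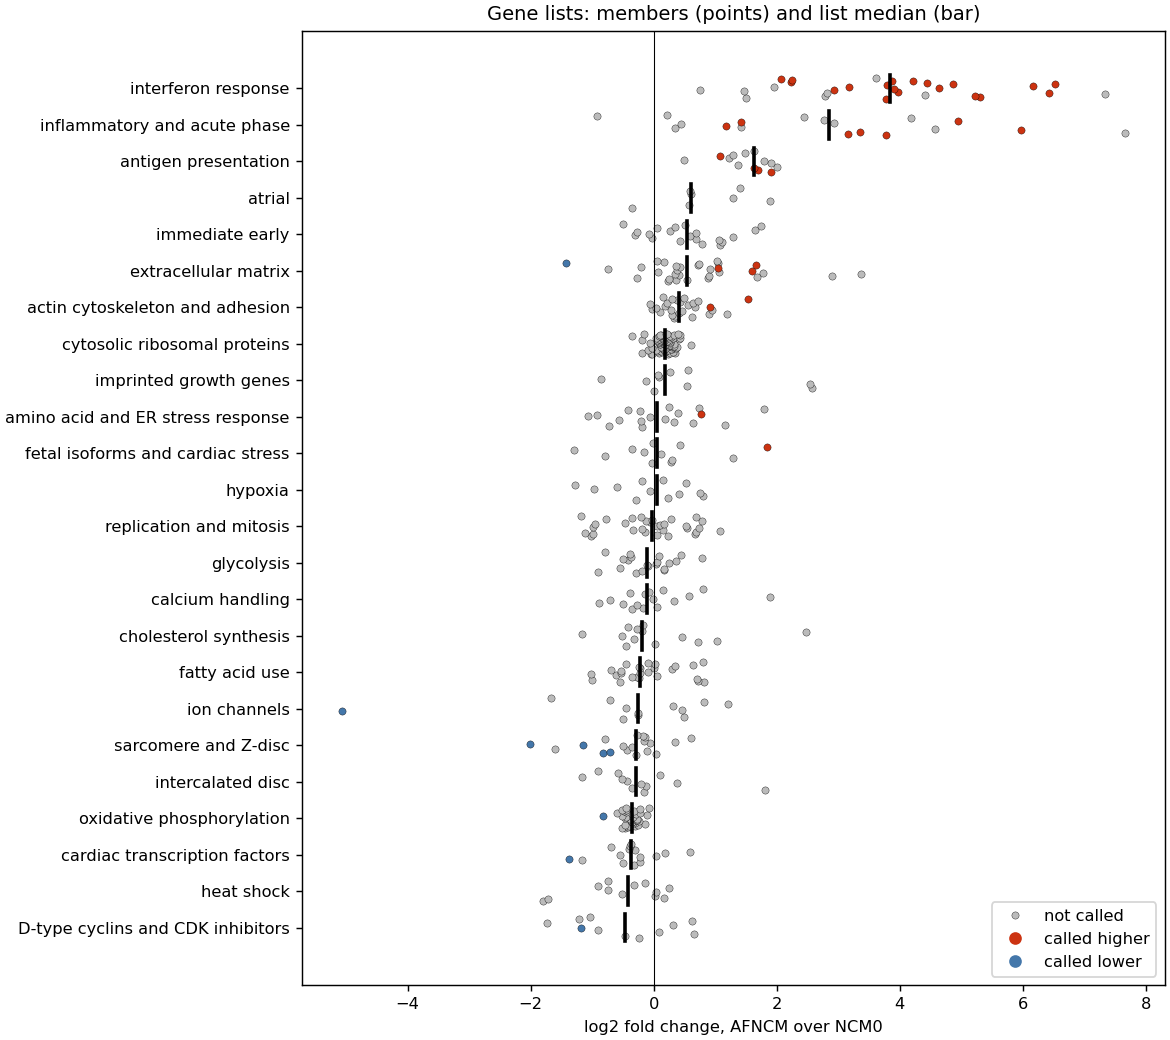
Log2 fold change of AFNCM over NCM0 (x axis) for every tested member of 24 gene lists, each a point, red where called higher and blue where called lower, with the list's median as a black bar. The interferon, inflammatory and antigen presentation lists have medians of 3.84, 2.86 and 1.63, and the other medians lie between -0.46 and 0.60.

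The 10 largest rises among genes of at least 50 CPM fell into few families. They held 2 myeloid-type chemokine and antiprotease genes with a matrix metalloproteinase (Ccl6, Wfdc17 and Mmp12), 3 neighbouring Sprr2 genes of the epithelial cornified envelope, the neutrophil chemokine Cxcl5, the protease inhibitor Serpinb1a, and the interferon-induced genes Phf11d and Xaf1. Ccl6 (chr11:83587882-83593087, mm10) is a CC chemokine of myeloid cells. It stood at 0.468 and 0.219 CPM in the NCM0 pools and 170.4, 274 and 589 CPM in the AFNCM pools, which is 2 UMIs against 5293 and a ratio of 1183 with a 95% interval of 327 to 9769 from counting error only (adjusted p = 0.000769). In wells thinned to 3000 UMIs each, 1.03% and 0% of the NCM0 wells and 6.48%, 20.9% and 33.3% of the AFNCM wells held a Ccl6 UMI, and unthinned 0.885% and 0.654% of the NCM0 wells and 10%, 44.5% and 65.99% of the AFNCM wells. Ccl6 was also called in the strict wells, at 0.538 and 0.233 CPM against 10.5, 77.2 and 134 CPM. The series also holds a fibroblast chip with 124 and 115 wells named AF1 and AF2, AFs from the co-culture by the study's account. In these AF wells its level was 143 and 0.393 CPM in AF1 and AF2, and the macrophage marker sum in the same wells was 647 and 38.8 CPM.

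Mmp12, macrophage elastase, stood at 0 and 0.437 CPM in the NCM0 pools and 27.6, 132 and 233 CPM in the AFNCM pools, or 2 UMIs against 2040 with a ratio of 456 (95% interval 126 to 3767, counting error only), and its call (adjusted p = 0.0114) was lost without NCM0_1 or NCM0_2. Wfdc17, a whey acidic protein family member of activated macrophages, rose from 4.21 and 0.437 CPM to 57.99, 120.4 and 156 CPM (log2 fold change 5.93, SE 0.75, adjusted p = 0.00568). Neither Mmp12 (log2 fold change 5.95, adjusted p = 0.105) nor Wfdc17 (log2 fold change 5.16, adjusted p = 0.217) passed the test in the strict wells. The macrophage marker sums of the same pools, given above, did not follow the groups, and in the strict wells they were 31.9 and 123 CPM against 17.2, 96.5 and 185 CPM. Within AFNCM these sums were lowest in AFNCM1 and highest in AFNCM3, and so were the levels of Ccl6, Mmp12 and Wfdc17. The part of macrophage transcripts in these 3 rises was not tested. The gene model of Mmp12 overlaps that of Mmp1b, so reads of the pair could be split between them.

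The Sprr2 genes encode small proline-rich proteins that are cross-linked beneath the membrane of stressed epithelia. Sprr2a1 rose from 3.28 and 8.53 CPM to 172, 288 and 254 CPM (log2 fold change 5.20, SE 0.40, adjusted p = 0.000456), Sprr2a2 from 0.936 and 3.28 CPM to 74.5, 133 and 119 CPM and Sprr2b from 3.28 and 0.875 CPM to 76.95, 138 and 117 CPM. Sprr2a1 and Sprr2a2 overlap and are nearly identical copies, so their shares of the reads are uncertain. Every AFNCM pool lay above both NCM0 pools for all 3 genes, and in the strict wells the differences were no smaller (log2 fold change 7.02, adjusted p = 0.000317 for Sprr2a1). Those wells were not selected by epithelial or epicardial markers, and the part of such cells in these levels was not tested. AF wells of the fibroblast chip held Sprr2a1 at 7.04 and 26.5 CPM, below each AFNCM pool.

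Serpinb1a, an inhibitor of neutrophil elastase, rose from 8.89 and 5.90 CPM to 164, 203 and 230.1 CPM (log2 fold change 4.80, SE 0.30, adjusted p = 0.000121). The NFNCM pools lay at 20.6, 21 and 22.1 CPM and the AF wells at 36.03 and 23.6 CPM, each below the lowest AFNCM pool. Clu encodes clusterin, a secreted chaperone induced in injured heart. It was described after its values had been seen, with 382 and 311 CPM in the NCM0 pools and 1642, 1585 and 2176 CPM in the AFNCM pools (log2 fold change 2.38, SE 0.19, adjusted p = 0.000608), and the NFNCM pools and AF wells were again lower, at 434, 535 and 389 CPM and 456 and 307 CPM.

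**Figure D3:**
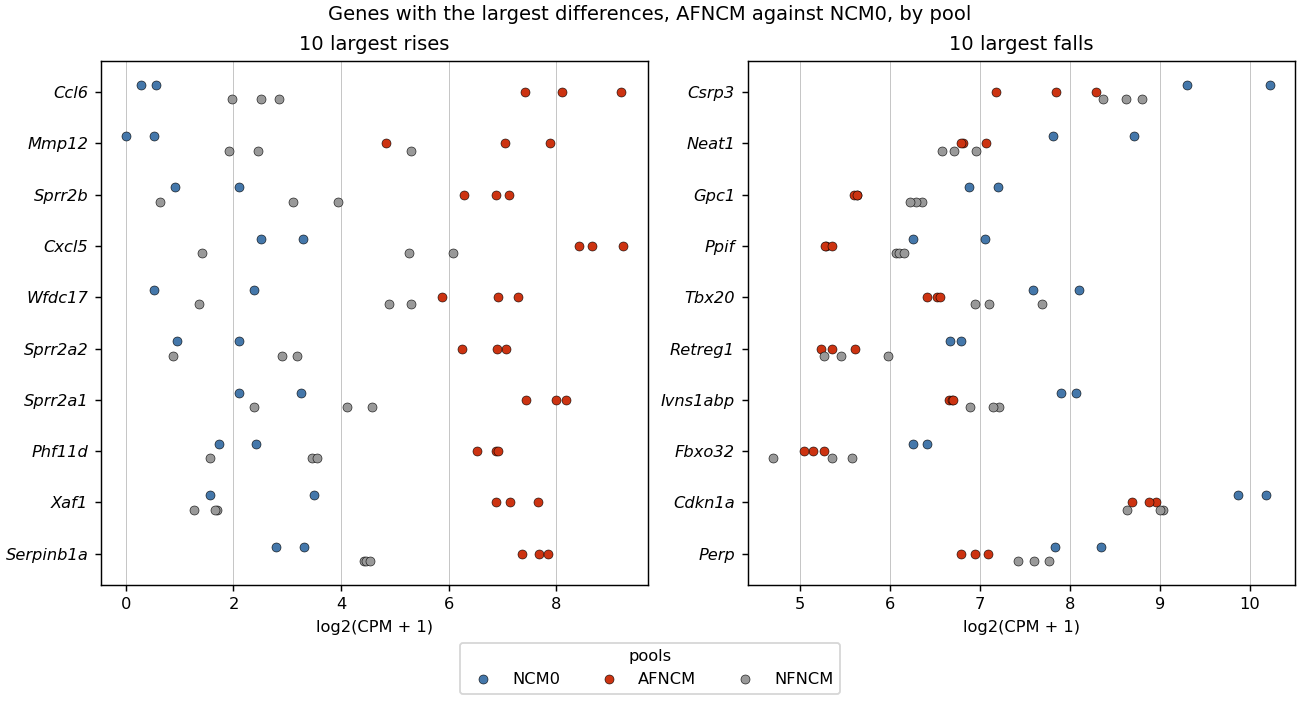
Level of the 10 genes with the largest rises (left) and the 10 with the largest falls (right) as log2(CPM + 1) on the x axis, 1 point per pool, with NCM0 in blue, AFNCM in red and NFNCM in grey. AFNCM and NCM0 do not overlap, as the choice of these 20 genes required, and for 8 of the 10 rises the NFNCM pools lie below the AFNCM pools by a difference that passed the test.

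Interferon-stimulated genes had the most calls among the 24 lists. Of 32 genes on the list, 28 passed the filter on low counts, and of these 19 were called higher (against 1.28% of all genes tested) and none lower. Members could pass that filter through the AFNCM pools alone, so the counts and medians of this and the other lists are a description. With no filter all 32 were tested, 1 lay below 0 and the median was 3.73. Over the 28 genes the median was 3.84, or 3.79 with Oasl1, which had no UMI in NCM0, set to its bound against 3 UMIs over the group. Ifi44, Ifit3, Xaf1 and Usp18 had the largest differences among its called members of at least 20 CPM. Leaving out NCM0_1 or AFNCM2 lowered the 19 calls to 12 or 10, and leaving out another pool to between 15 and 18. The list's summed level was 213 and 350 CPM in NCM0 and 2634, 3807 and 3538 CPM in AFNCM. In the strict wells 15 of 26 tested members were called higher, 1 of the 26 lay below 0, and the sums were 122 and 326 CPM against 2014, 3324 and 2928 CPM. The list's median in the strict wells was 3.75. The part of other cell types in these levels was not tested beyond that selection.

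Promoters of called interferon genes are shown because the letters of the ISRE stand in them. RefSeq promoters (GRCm38.p6) were searched on both strands from 250 bases before to 50 bases after the start of each gene for a pair of GAAA half-sites with any 2 bases between them. It was found in 3.44% of all 32851 promoters, or in 3.99% of their 27025 genes. By gene, it was found in 3.76% of the 8928 tested genes with a promoter. The share was 26.7% of the 116 matched genes called higher and 3.7% of the 27 matched genes called lower. Among the 15 matched interferon genes called higher, 10 held it. The 160 bases before the start are printed 5′ to 3′ on the gene's own strand, with matches to this motif, or to its complement, a pair of TTTC half-sites, in capitals, and overlapping matches run together. Their places are chr19:34640729-34640888 (plus strand), chr19:34583369-34583528 (plus strand), chr4:156200819-156200978 (minus strand), chr8:71537473-71537632 (minus strand) and chr11:58199396-58199555 (plus strand). Ifit1 and Ifit3 each held a pair of complement matches, Bst2 an overlapping pair and Isg15 3 overlapping ones, and Igtp a single match that began 34 bases before the start. A match is a description of the letters and not of binding.
Ifit1: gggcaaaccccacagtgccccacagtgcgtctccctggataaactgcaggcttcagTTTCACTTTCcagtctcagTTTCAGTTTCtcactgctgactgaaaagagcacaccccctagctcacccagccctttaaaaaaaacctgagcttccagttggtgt
Ifit3: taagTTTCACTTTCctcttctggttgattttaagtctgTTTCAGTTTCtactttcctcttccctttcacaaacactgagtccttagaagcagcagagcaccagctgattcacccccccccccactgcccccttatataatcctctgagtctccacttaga
Isg15: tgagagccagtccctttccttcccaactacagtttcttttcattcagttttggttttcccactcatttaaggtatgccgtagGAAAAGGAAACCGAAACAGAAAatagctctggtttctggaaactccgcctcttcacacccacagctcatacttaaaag
Bst2: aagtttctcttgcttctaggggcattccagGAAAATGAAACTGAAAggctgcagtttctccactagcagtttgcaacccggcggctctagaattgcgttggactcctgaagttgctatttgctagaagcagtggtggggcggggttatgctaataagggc
Igtp: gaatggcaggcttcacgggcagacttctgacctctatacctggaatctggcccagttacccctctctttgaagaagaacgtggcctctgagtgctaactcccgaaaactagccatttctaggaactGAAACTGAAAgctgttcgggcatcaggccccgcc

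Antiviral effectors came first by size. Ifi44, a GTP-binding protein that curbs viral replication, rose from 0 and 1.31 CPM to 40.4, 67.2 and 83.4 CPM (log2 fold change 6.17, SE 0.67, adjusted p = 0.00258), and Ifit3, which helps its partner Ifit1 to bind foreign RNA, from 0 and 2.19 CPM to 23.6, 62.9 and 81.05 CPM (log2 fold change 5.30, SE 0.83, adjusted p = 0.0157). The call of Ifit3 was lost without NCM0_1 or AFNCM2. Both genes had no UMI in NCM0_1. Members beyond Ifi44, Ifit3, Xaf1 and Usp18 were chosen for description after their values had been seen. Ifitm3, a membrane protein that blocks the entry of viruses, had 95.01 and 142 CPM in the NCM0 pools and 1432, 1929 and 1914 CPM in the AFNCM pools (log2 fold change 3.88, SE 0.24, adjusted p = 0.000121). Its gene lies at chr7:141009586-141010770 (mm10). After thinning, 11.3% and 20.5% of the NCM0 wells and 75.9%, 89.5% and 94.9% of the AFNCM wells held an Ifitm3 UMI, and before it 26.5% and 45.8% of the NCM0 wells and 84.6%, 98.2% and 98.6% of the AFNCM wells. The AFNCM pools were thus higher both in total and in the share of wells.

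Ifit1 was listed with 0 and 22.1 CPM in the NCM0 pools and 166, 183 and 172 CPM in the AFNCM pools (log2 fold change 3.78, SE 0.77, adjusted p = 0.0497), and the 2 NCM0 pools differed from each other more than the AFNCM pools did. Its call was lost without AFNCM1, AFNCM2 or AFNCM3. Bst2, or tetherin, which holds budding viruses at the cell surface, rose from 2.34 and 3.06 CPM to 33.5, 47.1 and 45.7 CPM (log2 fold change 3.91, SE 0.43, adjusted p = 0.00258). Isg15, a ubiquitin-like modifier, had 3 UMIs in NCM0 and its level was 0.468 and 0.437 CPM against 9.26, 25.05 and 19.2 CPM, a ratio of 40.97 with a 95% counting interval of 13.9 to 199.9, and its call (adjusted p = 0.0154) was lost without NCM0_1, NCM0_2 or AFNCM2. The pools of the groups did not overlap for any of these genes.

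Among sensors and signal transducers, Irf7, which amplifies type I interferon, had 0.468 and 3.28 CPM against 19.2, 44.3 and 39.2 CPM (log2 fold change 3.97, SE 0.69, adjusted p = 0.0240), a call lost without NCM0_1, AFNCM2 or AFNCM3. Usp18, which removes ISG15 and restrains the receptor, had no UMI in NCM0_1 and rose from 0 and 5.03 CPM to 69.5, 77.97 and 83.7 CPM (log2 fold change 4.63, SE 0.66, adjusted p = 0.0112). Xaf1, a partner of apoptosis inhibitors, rose from 10.3 and 1.97 CPM to 117, 202 and 141 CPM (log2 fold change 4.86, SE 0.57, adjusted p = 0.00391), and Rtp4, a chaperone induced by interferon, from 2.81 and 18.6 CPM to 120.2, 202 and 172 CPM (log2 fold change 3.80, SE 0.55, adjusted p = 0.0113). The gene model of Irf7 overlaps Phrf1 and that of Rtp4 overlaps Masp1.

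Igtp and Iigp1, immunity-related GTPases that mouse cells make under interferon gamma and type I interferon, were called higher as well. Igtp had 0.936 and 10.5 CPM against 119.5, 119 and 131 CPM (log2 fold change 4.22, SE 0.56, adjusted p = 0.00775), with a gene model that overlaps its relative Irgm2. Iigp1, a GTPase outside the list, had 28.5 and 32.1 CPM against 214, 266 and 181 CPM (log2 fold change 2.85, SE 0.24, adjusted p = 0.000738). Phf11d, also outside the list, rose from 2.34 and 4.37 CPM to 91.3, 117 and 119 CPM (log2 fold change 4.91, SE 0.35, adjusted p = 0.000282). In each of these genes the lowest AFNCM pool was several times the highest NCM0 pool.

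**Figure D4:**
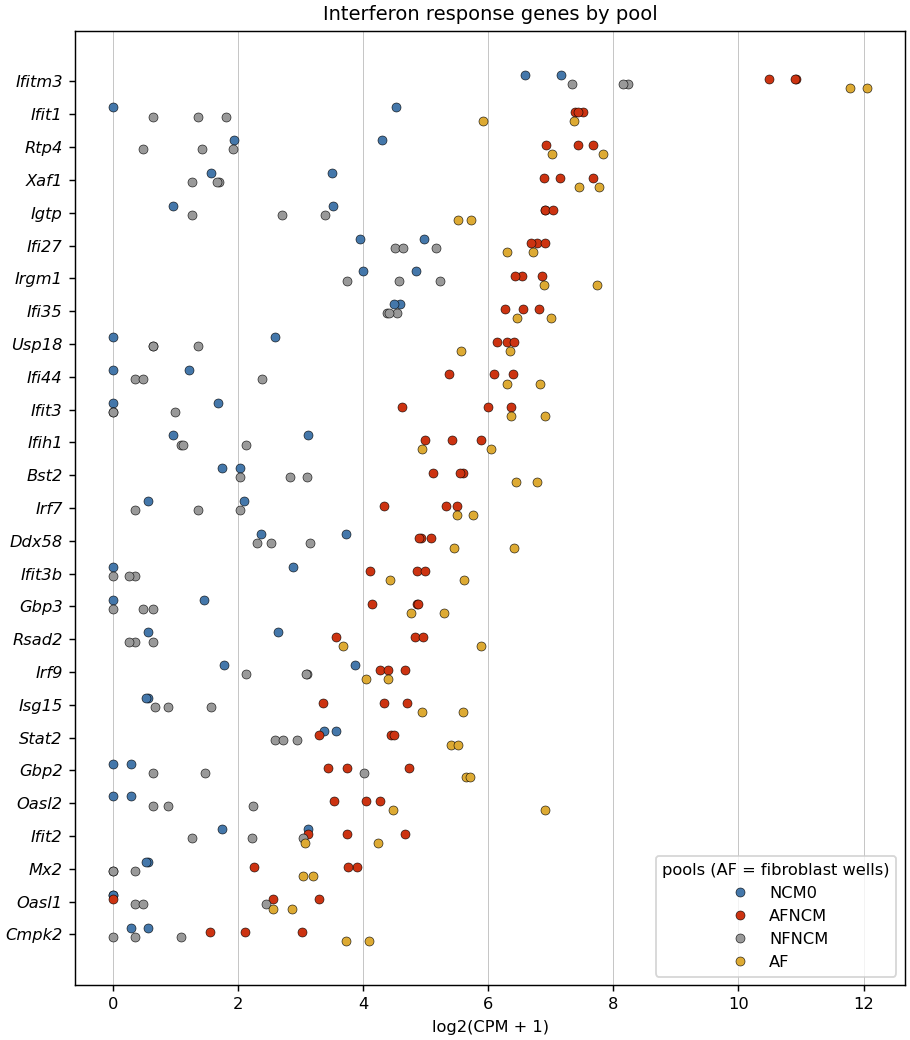
Level of 27 of the 28 tested interferon response genes as log2(CPM + 1) on the x axis, 1 point per pool, in NCM0 (blue), AFNCM (red) and NFNCM (grey) cardiomyocyte pools and in the 2 pools of AF wells from the fibroblast chip (yellow). For Ifitm3 the AFNCM pools lie between 1432 and 1929 CPM, above both NCM0 pools at 95.01 and 142 CPM and above all 3 NFNCM pools at 160.2 to 300.4 CPM.

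UMIs of the interferon list were found in nearly all AFNCM wells and were not carried by a few wells. By the levels given above, Ifitm3 alone made up a large part of these UMIs in AFNCM. The counts below therefore do not show how many members of the list a well held. After each well was thinned to 3000 UMIs, which left out 16 and 7 NCM0 wells and 22, 11 and 9 AFNCM wells as too shallow, 27.8% and 41.8% of NCM0 wells held at least 1 UMI of the list against 95.4%, 100% and 98.6% of AFNCM wells. The median well held 0 in both NCM0 pools and 7, 10 and 11 UMIs in the AFNCM pools. Without thinning the shares were 60.2% and 73.9% against 96.2%, 100% and 100%, with medians of 1 and 2 against 33, 64 and 72 UMIs. After thinning of the strict wells alone the shares were 22.99% and 39.8% against 94.4%, 100% and 97.9%. The NFNCM wells lay near the NCM0 wells, at 39.0%, 36.5% and 43.9%, and the AF wells of the fibroblast chip had medians of 14 and 16 UMIs. No cell type on this chip lacks these genes by definition, so no background share is given from a cell type without them.

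**Figure D5:**
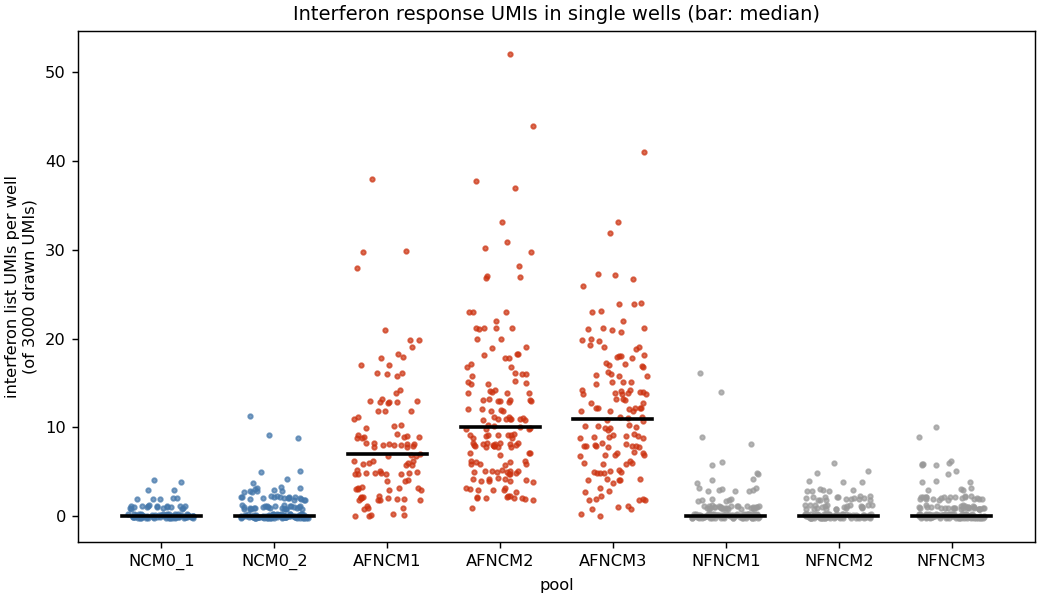
UMIs of the interferon response list per kept well after thinning each well to 3000 UMIs (y axis), 1 point per well (slightly scattered) and a black bar at the median, for 2 NCM0, 3 AFNCM and 3 NFNCM pools. The medians are 0 in NCM0 and NFNCM and 7, 10 and 11 in AFNCM, where Ifitm3 makes up a large part of the UMIs.

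Genes of antigen presentation on MHC class I had smaller differences. Of 13 tested members all 13 were above 0, 4 were called higher (against 1.28% of all genes tested) and none lower, with a median of 1.63 and summed levels of 696 and 624 CPM against 1576, 2180 and 2043 CPM. B2m, the light chain shared by all class I molecules, rose from 373 and 204 CPM to 857, 1241 and 1119 CPM (log2 fold change 1.90, SE 0.27, adjusted p = 0.0112), and its gene model overlaps Patl2. The heavy chain genes H2-D1 and H2-K1, whose reads can be shared with close relatives, had 37.9 and 21.4 CPM against 75.6, 100.01 and 108 CPM (log2 fold change 1.70, SE 0.31, adjusted p = 0.0334) and 26.2 and 17.3 CPM against 49.2, 68.7 and 81.4 CPM (log2 fold change 1.63, SE 0.33, adjusted p = 0.0498). The call of H2-D1 was lost without NCM0_2, AFNCM2 or AFNCM3 and that of H2-K1 without NCM0_1, NCM0_2, AFNCM2 or AFNCM3. Psme2, a subunit of the proteasome activator that prepares peptides for these molecules, had 65.5 and 64.5 CPM against 140.2, 134 and 139 CPM (log2 fold change 1.08, SE 0.19, adjusted p = 0.0256), a call lost in each of the 5 fits that left out a pool. Of 12 members tested in the strict wells 3 were called higher, and leaving out a pool gave between 1 and 4 calls.

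Chemokines and acute-phase genes formed the other large group. Of 18 tested members of the inflammatory list, 7 were called higher (against 1.28% of all genes tested) and none lower, 17 were above 0 and the median was 2.86. Leaving out a pool gave 5 or 6 calls. Ccl2 and Ccl7 encode attractants of monocytes. Ccl2 rose from 257 and 433 CPM to 4594, 5512 and 4111 CPM (log2 fold change 3.77, SE 0.25, adjusted p = 0.000183) and Ccl7 from 174 and 244 CPM to 1853, 1925 and 1860.02 CPM (log2 fold change 3.16, SE 0.19, adjusted p = 0.000121). Each was high in all 3 AFNCM pools, and each was higher still in the AF wells of the fibroblast chip, at 15179.6 and 15088 CPM for Ccl2 and 6798 and 6106 CPM for Ccl7. Ccl2 in the strict wells had 152 and 323 CPM against 1424, 2341 and 2042 CPM (log2 fold change 3.02, adjusted p = 0.00238). The Ccl2 model overlaps Gm17268, and Ccl7 was described after its values had been seen.

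Among attractants of neutrophils, Cxcl1 had 65.1 and 69.3 CPM in the NCM0 pools and 676, 737 and 653 CPM in the AFNCM pools (log2 fold change 3.35, SE 0.17, adjusted p = 9.32e-05), and Cxcl5 4.68 and 8.75 CPM against 602, 341 and 403 CPM (log2 fold change 5.97, SE 0.38, adjusted p = 0.000121). Lcn2, the iron-binding lipocalin of the acute phase, had 0.468 and 3.50 CPM against 72.5, 83.1 and 65.9 CPM (log2 fold change 4.95, SE 0.51, adjusted p = 0.00204). The inhibitor gene of NF-kB itself, Nfkbia, had 227 and 150 CPM against 433, 462 and 382 CPM (log2 fold change 1.18, SE 0.21, adjusted p = 0.0277) and was called in the strict wells too. The adhesion molecule gene Vcam1 had 32.3 and 45.5 CPM against 102, 120.2 and 92.2 CPM (log2 fold change 1.42, SE 0.25, adjusted p = 0.0283) and was not called in the strict wells. The call of Nfkbia was lost without NCM0_2, AFNCM1, AFNCM2 or AFNCM3, and that of Vcam1 in each of the 5 fits that left out a pool. Both were named after their values had been seen. AF wells of the fibroblast chip exceeded every AFNCM pool for Cxcl1, Cxcl5 and Lcn2, with 2096 and 2366 CPM, 2039 and 2878 CPM and 359 and 432 CPM. Among the strict wells, 6 of 14 tested members of the list were called higher. The part of fibroblast transcripts in the chemokine levels was not tested beyond that selection.

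The promoter of Cxcl1 is shown for its match to a binding motif of NF-kB (GGGA, any base, then TTTCC) at chr5:90891085-90891244 (plus strand), with the match in capitals.
Cxcl1: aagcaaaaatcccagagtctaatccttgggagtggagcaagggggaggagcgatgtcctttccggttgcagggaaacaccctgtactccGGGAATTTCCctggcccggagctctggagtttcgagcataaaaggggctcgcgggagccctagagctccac
The match began 71 bases before the start. Searched in the same way as the ISRE, the motif was found in 0.411% of all promoters, or in 0.466% of their genes. By gene, it was found in 0.515% of the tested genes matched and in 3 of the 116 matched genes called higher (2.59%).

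Few matrix and cytoskeleton genes were called. Of 31 extracellular matrix genes outside the rule, 3 were called higher (against 1.28% of all genes tested) and 1 lower (against 0.297%). In all kept wells 27 were above 0 with a median of 0.54. In the strict wells 13 lay below 0 and the median was 0.37, and without NCM0_1 12 lay below 0 and it was 0.29. Vcan, a large proteoglycan of the growing heart, rose from 90.3 and 70.2 CPM to 319, 223 and 220.1 CPM (log2 fold change 1.67, SE 0.24, adjusted p = 0.0112), a call lost without NCM0_2. Ccn1, a matricellular target of YAP and serum response factor, rose from 69.3 and 133 CPM to 283, 325 and 323 CPM (log2 fold change 1.60, SE 0.27, adjusted p = 0.0197), a call lost without AFNCM2 or AFNCM3, and Timp1, an inhibitor of metalloproteinases, from 307 and 360.3 CPM to 697, 545 and 819 CPM (log2 fold change 1.04, SE 0.20, adjusted p = 0.0376), a call lost without NCM0_1, NCM0_2, AFNCM1 or AFNCM3. All 3 were called in the strict wells. Lama2, the laminin chain of the muscle basement membrane, fell from 66.5 and 62.1 CPM to 25.8, 25.6 and 20.2 CPM (log2 fold change -1.43, SE 0.27, adjusted p = 0.0349), a call lost in each of the 5 fits that left out a pool. The 13 fibroblast markers outside the rule had overlapping sums in the groups, as given above, and the part of fibroblast transcripts in these values was not tested.

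Of 27 genes of the actin cytoskeleton, 25 were above 0 and 2 were called higher (against 1.28% of all genes tested), with a median of 0.42. In the strict wells 7 lay below 0, 1 was called higher and the median was 0.28. Tmsb4x, thymosin beta 4, which sequesters actin monomers, rose from 719 and 701 CPM to 2046, 2001 and 2106 CPM (log2 fold change 1.53, SE 0.13, adjusted p = 0.000739) and was called in every fit that left out a pool. Tpm4, a non-muscle tropomyosin, had 142 and 154 CPM against 309, 279 and 252 CPM (log2 fold change 0.92, SE 0.17, adjusted p = 0.0357), a call lost in each of the 5 fits that left out a pool. Myl9, a regulatory light chain of smooth and non-muscle myosin, rose from 161 and 212 CPM to 639, 574 and 801 CPM (log2 fold change 1.84, SE 0.21, adjusted p = 0.00303). It was the single called member among 12 fetal and stress genes (against 1.28% of all genes tested called higher). Myl9 is also on the list of smooth muscle and pericyte markers, where it was the 1 of 7 called higher. The part of such cells in its rise was not tested. The AF wells held less Myl9 than any AFNCM pool, at 174 and 163 CPM.

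A few further genes of cardiomyocytes or many cell types rose, all described after their values had been seen. Pdlim7, an adaptor between actin and kinases, had 343 and 257 CPM against 796, 609.7 and 989 CPM (log2 fold change 1.41, SE 0.23, adjusted p = 0.0179), a call lost without NCM0_2. Tgm2, a transglutaminase that cross-links proteins, had 23.4 and 22.7 CPM against 163, 118 and 143 CPM (log2 fold change 2.62, SE 0.25, adjusted p = 0.00109), and Tspo, a protein of the outer mitochondrial membrane, 557 and 419 CPM against 1143, 1048 and 1304 CPM (log2 fold change 1.26, SE 0.18, adjusted p = 0.0108). These 3 genes were lower in the AF wells than in any AFNCM pool, at 203 and 269.9 CPM, 21.3 and 21.7 CPM and 696 and 799 CPM. Sri encodes sorcin, a calcium sensor that binds the ryanodine receptor, and it rose from 179.7 and 170.1 CPM to 397, 354 and 448 CPM (log2 fold change 1.19, SE 0.17, adjusted p = 0.0113). Of the endoplasmic reticulum chaperones, Hspa5 had 673 and 679 CPM against 1296, 1047 and 1097 CPM (log2 fold change 0.76, SE 0.15, adjusted p = 0.0411), a call lost in each of the 5 fits that left out a pool, and the secreted factor Manf 129.6 and 156 CPM against 399, 283 and 370.5 CPM (log2 fold change 1.29, SE 0.20, adjusted p = 0.0157), a call lost without NCM0_1 or AFNCM3. Hspa5 was the single call among 18 members of its list (against 1.28% of all genes tested called higher), and no member was called in the strict wells.

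Several genes of vessel lining cells were called higher. Cdh5, the cadherin of endothelial junctions, and Fabp4, a fatty acid carrier of capillaries, belong to the endothelial list. Cdh5 had 0.936 and 2.84 CPM against 64.4, 77.97 and 57.8 CPM (log2 fold change 4.95, SE 0.45, adjusted p = 0.000892), and Fabp4 19.2 and 4.37 CPM against 124, 177 and 106 CPM (log2 fold change 3.66, SE 0.54, adjusted p = 0.0122). Angpt2, which loosens vessels, had 1.404 and 1.97 CPM against 33.1, 49.9 and 53.01 CPM (adjusted p = 0.00164). Edn1, the precursor of endothelin, had 2.81 and 7.43 CPM against 41.5, 45.6 and 47.1 CPM (adjusted p = 0.0113), a call lost without AFNCM2. None of these 4 genes passed the test in the strict wells, which were chosen in part by the endothelial sum and where Cdh5 had 0.538 and 1.87 CPM against 6.68, 27.4 and 8.82 CPM (log2 fold change 3.39, adjusted p = 0.192). Dll4, a Notch ligand of arterial cells, went the other way, with 28.1 and 50.9 CPM against 4.41, 9.23 and 3.07 CPM (log2 fold change -2.82, SE 0.53, adjusted p = 0.0344), a call lost without NCM0_1, NCM0_2, AFNCM1 or AFNCM3. It was called lower in the strict wells too.

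Few contractile genes were called. Of 19 sarcomere and Z-disc genes 4 were called lower (against 0.297% of all genes tested) and none higher, and the median was -0.28. Csrp3, the muscle LIM protein that senses stretch at the Z-disc, fell from 631 and 1193 CPM to 228, 144 and 312 CPM (log2 fold change -2.002, SE 0.33, adjusted p = 0.0188), a call lost without NCM0_2, AFNCM1 or AFNCM2, and it was the call that held in the strict wells. Myoz2, an inhibitor of calcineurin at the Z-disc, had 329.95 and 273 CPM against 143, 151 and 115 CPM (log2 fold change -1.14, SE 0.19, adjusted p = 0.0179), a call lost without NCM0_1, AFNCM2 or AFNCM3. The giant protein gene Ttn had 3948 and 4357 CPM against 2864, 2408 and 2378 CPM (log2 fold change -0.70, SE 0.13, adjusted p = 0.0369), a call lost without NCM0_2, AFNCM1, AFNCM2 or AFNCM3, and Mybpc3, myosin binding protein C, 731 and 728 CPM against 444, 372 and 422 CPM (log2 fold change -0.82, SE 0.15, adjusted p = 0.0270), a call lost in each of the 5 fits that left out a pool. No fit that left out a pool called more than 2 members lower. The list's median was -0.077 in the strict wells. Mb, the oxygen store myoglobin, was described after its values had been seen, with 2812 and 3061 CPM against 1657, 2045 and 1818 CPM (log2 fold change -0.67, SE 0.14, adjusted p = 0.0460), a call lost in each of the 5 fits that left out a pool.

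Genes of oxidative phosphorylation leaned downward as a body and rarely passed the test singly. All 35 members had a negative log2 fold change, with a median of -0.35, and 27 had pools that lay apart (14.4% of all genes tested). Of the 35, 1 was called lower (against 0.297% of all genes tested). That gene was Cox6a2, the muscle subunit of cytochrome c oxidase, with 2516 and 1893 CPM in the NCM0 pools and 1273, 1216 and 1253 CPM in the AFNCM pools (log2 fold change -0.82, SE 0.15, adjusted p = 0.0292), a call lost without NCM0_1, AFNCM1, AFNCM2 or AFNCM3. Cox8b, another muscle subunit, had 4879.6 and 3481 CPM against 2760.4, 2802 and 2733 CPM (log2 fold change -0.60, SE 0.15, adjusted p = 0.113). Of the 35 members 33 were below 0 in the strict wells, the median was -0.19 and none was called. The members' summed level was 66975 and 60926 CPM against 50757, 47640 and 49888 CPM. Ribosomal protein genes lay the other way by less, with 72 of 81 above 0, a median of 0.18, 5 genes at an unadjusted p below 0.05 and no call by edgeR or DESeq2.

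Genes of excitation and calcium handling showed little that passed the test. Among 16 calcium handling genes none was called by edgeR or DESeq2, 3 had an unadjusted p below 0.05, and the sarcoplasmic calcium pump gene Atp2a2 had 2863 and 3225 CPM against 2620.3, 2705 and 2800.5 CPM (log2 fold change -0.17, SE 0.12, adjusted p = 0.605). Its regulator Pln had 2162 and 2025 CPM against 2198, 2209 and 2133 CPM (log2 fold change 0.06, SE 0.12, adjusted p = 0.885). Kcnip2, a subunit of the transient outward potassium channel, was the single call among 12 ion channel genes (against 0.297% of all genes tested called lower). Its level was 21.1 and 7.43 CPM against 0, 0.753 and 0.384 CPM, or 79 UMIs against 6 (adjusted p = 0.0409). The call was lost in each of the 5 fits that left out a pool. The gap junction gene Gja1 had 611 and 547 CPM against 495, 557 and 510.3 CPM (log2 fold change -0.15, SE 0.14, adjusted p = 0.715), and none of 12 intercalated disc genes was called by edgeR, with 3 at an unadjusted p below 0.05 and 1 called by DESeq2. The atrial genes Sln, at 106 and 309.6 CPM against 1100.04, 442 and 783 CPM, and Nppa, at 238 and 159 CPM against 699.8, 237 and 515 CPM, varied widely among the AFNCM pools and were not called.

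The transcription factor Tbx20, needed for cardiomyocyte identity, fell from 191 and 274 CPM to 84.2, 91.2 and 92.8 CPM (log2 fold change -1.38, SE 0.20, adjusted p = 0.0113), a call lost without NCM0_2 or AFNCM2. It was the single call among 15 cardiac transcription factors (against 0.297% of all genes tested called lower), also in the strict wells. Gpc1, a heparan sulfate proteoglycan, fell from 146 and 116 CPM to 48.5, 47.3 and 48.6 CPM (log2 fold change -1.44, SE 0.21, adjusted p = 0.0113), a call lost without NCM0_1 or AFNCM2. The 3 AFNCM pools differed little for Gpc1, whose model overlaps Ankmy1. Ppif, cyclophilin D of the mitochondrial permeability pore, had 75.4 and 132 CPM against 38.1, 37.9 and 39.8 CPM (log2 fold change -1.44, SE 0.27, adjusted p = 0.0366), a call lost without NCM0_2, AFNCM1, AFNCM2 or AFNCM3. Fbxo32, the ubiquitin ligase atrogin-1 of muscle wasting, had 75.4 and 83.7 CPM against 34.2, 37.5 and 31.9 CPM, and Retreg1, a receptor for autophagy of the endoplasmic reticulum, 109.5 and 101 CPM against 39.9, 47.7 and 36.5 CPM, and both calls were lost in each of the 5 fits that left out a pool. Ivns1abp, an actin-binding kelch protein, fell from 238 and 267 CPM to 99.7, 102 and 103 CPM (log2 fold change -1.31, SE 0.17, adjusted p = 0.00585) and was called in every such fit. The long nuclear RNA Neat1, the scaffold of paraspeckles, had 223 and 417 CPM against 133, 111 and 109 CPM (log2 fold change -1.45, SE 0.25, adjusted p = 0.0241), a call lost without NCM0_2, AFNCM2 or AFNCM3.

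Cdkn1a encodes p21, which halts the cell cycle. It was the called member among 11 D-type cyclins and CDK inhibitors (against 0.297% of all genes tested called lower). It stood at 1156 and 936 CPM in the NCM0 pools and 411, 495 and 471 CPM in the AFNCM pools (log2 fold change -1.19, SE 0.16, adjusted p = 0.00717) and was called without each pool in turn, although not in the strict wells (log2 fold change -1.03, adjusted p = 0.0666). None of 31 replication and mitosis genes was called by edgeR or DESeq2, 4 had an unadjusted p below 0.05, and their median was -0.025, or -0.41 in the strict wells and 0.46 without the marker rule. Mki67, a marker of dividing cells, had 75.8 and 102 CPM against 39.9, 63.5 and 28.2 CPM (log2 fold change -1.02, SE 0.34, adjusted p = 0.221). Perp, a junction protein induced by p53, fell from 323 and 228 CPM to 122, 109 and 135 CPM (log2 fold change -1.17, SE 0.20, adjusted p = 0.0225), a call lost without NCM0_1, AFNCM1, AFNCM2 or AFNCM3.

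Some further falls were described after their values had been seen. Igfbp2, a carrier of insulin-like growth factors, fell from 56.6 and 76.97 CPM to 0.882, 3.96 and 3.07 CPM (log2 fold change -4.63, SE 0.50, adjusted p = 0.00258). Wif1, an inhibitor of Wnt ligands, fell from 93.6 and 104 CPM to 17.2, 13.2 and 3.46 CPM (log2 fold change -3.14, SE 0.50, adjusted p = 0.0174), a call lost without NCM0_1, NCM0_2 or AFNCM2. Ahnak, a scaffold beneath the membrane, had 651 and 719.6 CPM against 407, 339.8 and 353 CPM (log2 fold change -0.90, SE 0.15, adjusted p = 0.0205), a call lost without NCM0_2, AFNCM2 or AFNCM3. Wif1 and Ahnak were called lower in the strict wells too, and Igfbp2 was not (log2 fold change -3.02, adjusted p = 0.105).

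Besides the calcium handling, intercalated disc, replication and mitosis, and ribosomal protein genes given above, further lists had no call. They were atrial genes (7 tested, median 0.60), fatty acid use (26, -0.22), glycolysis (20, -0.10), immediate early genes (20, 0.55), heat shock (12, -0.42), hypoxia (12, 0.049), cholesterol synthesis (13, -0.18) and imprinted growth genes (10, 0.18). Between 1 and 7 members of each had an unadjusted p below 0.05 in edgeR's test, DESeq2 called 4 immediate early, 2 fatty acid, 1 heat shock and 1 imprinted gene, and leaving out a pool gave at most 3 calls in a list. A missing call does not show that these genes were equal. Lpl, a lipase that supplies fatty acids to the heart, lay apart at 715 and 567 CPM against 1029, 1159 and 992 CPM (adjusted p = 0.0629), as did the fatty acid carrier Fabp3 in the opposite direction at 534 and 444 CPM against 350.1, 305 and 344 CPM (adjusted p = 0.157). Among immediate early genes Fos had 149 and 125 CPM against 203, 335 and 324 CPM (adjusted p = 0.0739) and Jun 93.1 and 72.2 CPM against 139.8, 229.8 and 163 CPM (adjusted p = 0.0790), and Jun was called higher in the strict wells. The median of fatty acid genes in the strict wells was 0.028.

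A comparison of AFNCM with NFNCM, fitted over all 8 pools, asks which of these levels differ between the co-cultures, whose kind of fibroblast and plating ratio cannot be told apart. The AFNCM pools enter both comparisons, so values are given side by side. Of 13347 genes tested, 100 were higher in AFNCM than in NFNCM (0.749%) and 11 lower (0.0824%). Leaving out AFNCM2, AFNCM3, NFNCM2 or NFNCM3 lowered the 111 calls to 57, 55, 58 or 68. The interferon list held 21 genes called higher of 28, and its summed level in the NFNCM pools was 445, 253 and 424 CPM, near the 213 and 350 CPM of NCM0. Ifitm3 in NFNCM had 300.4, 160.2 and 285 CPM, a difference of log2 2.79, adjusted p = 0.000174. Rtp4 had 2.79, 1.68 and 0.391 CPM (log2 6.72, adjusted p = 0.000320) and Lcn2 0.279, 0.280 and 0.196 CPM (log2 8.05, adjusted p = 4.04e-05). Rtp4 and Lcn2 in NFNCM thus did not exceed the higher NCM0 pool, and Ifitm3 lay above both NCM0 pools and below every AFNCM pool.

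Chemokines were not alike in this comparison. Ccl2 in the NFNCM pools had 3914, 5135 and 5577 CPM, overlapping the AFNCM pools (difference log2 -0.07, adjusted p = 0.962, SE 0.19), and Cxcl1 569, 619 and 839 CPM (difference log2 -0.0013, adjusted p = 0.999, SE 0.15). Ccl7 had 1304, 1459 and 1514 CPM (difference log2 0.37, adjusted p = 0.329). Of 18 inflammatory genes, 2 were called higher in AFNCM than in NFNCM (against 0.749% of all genes tested), Lcn2 and Cxcl5. Cxcl5 in NFNCM was 1.67, 37.2 and 66.3 CPM, below the AFNCM pools (difference log2 3.62, adjusted p = 0.0334), and so was Ccl6, at 4.74, 6.16 and 2.94 CPM (difference log2 6.22, adjusted p = 8.61e-05).

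Among the falls, Cdkn1a had 524, 397 and 509.9 CPM in NFNCM (difference log2 -0.08, adjusted p = 0.926), Neat1 94.8, 123 and 104 CPM (difference log2 0.11, adjusted p = 0.940) and Csrp3 443, 393 and 329 CPM (difference log2 -0.80, adjusted p = 0.311). These 3 genes were lower in each NFNCM pool than in both NCM0 pools. Wif1 and Ahnak were lower in AFNCM than in NFNCM, where they had 65.8, 45.1 and 48.5 CPM (log2 -2.27, adjusted p = 0.0289) and 671, 661 and 665 CPM (log2 -0.89, adjusted p = 0.00476). The same direction was found for Cox6a2, at 1768, 2541 and 2034 CPM (log2 -0.79, adjusted p = 0.0303). Ahnak in NFNCM lay in the range of NCM0, and Wif1 between both groups.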

How the data were processed

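Counts of UMIs for each gene in each well of 1 ICELL8 chip were used as the authors deposited them, made with STAR 2.5.2b and featureCounts (Subread 1.4.6-p1) on mm10 per the labels, and a well report that names each well's pool, to which the counts were joined by barcode. The strand setting of the counting is not given in the sources used here. Wells were filtered as described, no doublet caller was run, and 33 mitochondrial genes and 85 spike-in columns were left out. Counts were summed per pool. Genes with at least 10 UMIs in at least 2 of 5 pools were tested with edgeR 4.0.16 (TMM, quasi-likelihood, Benjamini-Hochberg) in R 4.3.3, with limma-voom (limma 3.58.1) and DESeq2 1.42.0 as alternatives. The SE is that of the log2 fold change. The test was checked on simulated data, in which it missed most of the smaller changes. The members and lists were chosen with earlier results of these data known. The text names the 10 largest rises and falls among called genes of at least 50 CPM whose pools did not overlap, up to 4 members per list (called members of at least 20 CPM by size, then the highest), and genes said to be added after their values were seen. Replicate pools of a group differed by more than sampling noise. The 2 chips of the series share 269 well barcodes by design. CPM of the AF wells is scaled to their own totals. Some genes that this rule names are not reported here, although the counts of their lists include them.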

Additional observations from a re-analysis of the deposited data

Results flagged for a closer look

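Of the 10 largest rises over NCM0, 8 also differed between the AFNCM and NFNCM pools, by edgeR's quasi-likelihood test of that difference. The genes were chosen for high values in the same 3 AFNCM pools, so this is no independent support, and 0.749% of all genes tested were called higher in that comparison. The log2 difference, AFNCM minus NFNCM, was 6.22 for Ccl6, 3.81 for Sprr2b, 3.62 for Cxcl5, 4.34 for Sprr2a2, 3.99 for Sprr2a1, 3.79 for Phf11d, 6.25 for Xaf1 and 3.20 for Serpinb1a. All 3 AFNCM pools lay above all 3 NFNCM pools for each of these 8 genes. The adjusted p ranged from 4.04e-05 for Serpinb1a to 0.0334 for Cxcl5. Neither of the other rises, Mmp12 (log2 3.10, adjusted p = 0.190) and Wfdc17 (log2 2.28, adjusted p = 0.282), passed that test. No group had the 4 pools that a test for a single deviating pool needs.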

How the results depend on the processing

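The counts of genes called between AFNCM and NCM0 (202, with 164 higher and 38 lower) moved with the test, the filters and the wells. DESeq2 gave 503 calls (366 higher, 137 lower) and limma-voom 82 (57 and 25), no filter on low counts 724 (497 and 227), the cardiomyocyte sum at 10 times the fibroblast sum 120 (106 and 14), no marker rule 490 (329 and 161) and the strict wells 90 (75 and 15). Thinned wells gave 232 calls with 63 lower. Fits that left out a pool gave 80 to 157 calls, 75 to 141 higher and 5 to 29 lower. Higher genes made up 81.2% of the calls, but 69.5% under limma-voom, 68.6% without a filter, 67.1% without the marker rule, and 93.8% without AFNCM2. DESeq2 size factors and library totals, at 80.5% and 82.5%, did not move that share by much. For AFNCM against NFNCM (111, with 100 higher and 11 lower), DESeq2 gave 266 (203 and 63), and fits without a pool 55 to 133, 51 to 117 higher and 1 to 16 lower. The cause of these shifts was not tested.

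With the number in the pool name as a replicate block, 99 genes were called (89 higher, 10 lower) and 72 between AFNCM and NFNCM, with 3 lower. Same-numbered NCM0 and AFNCM pools deviated from their group means with correlations of -0.0097 and 0.12. The deviations of the 2 NCM0 pools mirror each other, so these values cannot show whether the numbers pair the pools. The interferon list had 14 calls with the block, against 19, and the antigen presentation list none, against 4.

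All 202 genes kept their direction where tested, except 1 in the strict wells. Of the 76 called genes named in the text, 34 were called in all 5 fits that left out a pool and 10 in none of them. Of the same 76 genes, 44 kept their call in the strict wells and 32 did not. The interferon list had 19 calls, against 8 under limma-voom and 21 under DESeq2. Among genes that were not called, Atp2a2 was at 0.074 and Gja1 at 0.060 in the strict wells, the opposite sign to all kept wells, and Pln was at -0.24 without the marker rule. The NCM0 pools hold 2281346 and 4423427 UMIs, and a gene with few UMIs in them has a fold change that rests on those few.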

Other observations

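Targets of the tumour suppressor p53 leaned lower in AFNCM than in NCM0. A list of 22 such genes was written after the values of Cdkn1a and Perp had been seen, so it describes and tests nothing. Of its 22 members, 20 lay below 0, and the median log2 fold change was -0.83. The 4 called lower (against 0.297% of all genes tested) were Cdkn1a and Perp, which had prompted the list, and Ccng1 and Trp53inp1. None was called higher. Ccng1, cyclin G1, fell from 233 and 361 CPM to 127, 133 and 147 CPM (log2 fold change -1.13, SE 0.21, adjusted p = 0.0327), a call lost without NCM0_2, AFNCM1, AFNCM2 or AFNCM3. Trp53inp1, a nuclear regulator of p53, fell from 44.9 and 53.6 CPM to 15.9, 9.98 and 14.6 CPM (log2 fold change -1.87, SE 0.34, adjusted p = 0.0283), a call lost without NCM0_1, NCM0_2, AFNCM2 or AFNCM3. The list summed to 5074 and 4739 CPM in NCM0, to 3143, 3228 and 3326 CPM in AFNCM and to 3493, 2967 and 3645 CPM in NFNCM, so both co-cultured groups lay below NCM0. In the strict wells the sums were 3619 and 4573 CPM against 2533, 2762 and 3002 CPM.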
